A study of Mus musculus with 12 samples.

Results

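The 10 genes described here encode the AMPA-type glutamate receptor and proteins bound to it. They were taken as the genes Gria1, Gria2, Gria3, Gria4, Cacng2, Cacng3, Cacng4, Cacng8, Cnih2 and Cnih3, with every probe set that carries 1 of these symbols and no other in the platform annotation. A probe set is a group of array probes read as 1 value. The rule found 11 probe sets of 28853, for 10 genes of 19938. Cacng2 had 2 probe sets and each other gene had 1, so a gene's value is its probe set's value, or for Cacng2 the mean of both.

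The RNA came from the anterior striatum of adolescent male mice of the outbred Swiss CD-1 stock. All went through a conditioned place preference procedure of 10 days, in which a compartment is paired with a drug given 15 minutes before entry. There were 4 groups of 3 arrays each: mephedrone together with ethanol (called the combination), mephedrone alone, ethanol alone and saline. Mephedrone is a stimulant of the cathinone class. Doses are not given in the sources used here, and the labels do not say whether the arrays of a group are separate animals, so a p-value here covers only how far arrays of a group differ, and that could be technical.

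AMPA receptors carry most of the fast excitatory current at brain synapses, including those of cortical axons on striatal projection neurons. The receptor is a tetramer of GluA subunits, encoded by the Gria genes, around a cation pore. Auxiliary subunits ride with it: the transmembrane AMPA receptor regulatory proteins (TARPs, encoded here by the Cacng genes) and the cornichons (Cnih2 and Cnih3) steer its delivery to the membrane and slow its closing. In drug research, changes in striatal AMPA receptors after repeated stimulants are a long-studied form of synaptic plasticity.

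The deposited values are log2 differences of a probe set from its own median over the 12 arrays, so they show which arrays are higher or lower for a gene and not how abundant its RNA is. A coarse hint of level remains in the rounding of the numbers: all 11 probe sets stepped as single-precision numbers between 8 and 16 do, as did 46.5% of all probe sets (each step within 0.1 of a whole number). The same held for all 12 probe sets of striatal projection neuron markers, 9 of 11 of cortical excitatory neurons and 1 of 9 of choroid plexus. Arrays are bulk samples, in which fewer cells of a type and less RNA per cell cannot be told apart. Combination replicate 3 stood apart: all 11 cortical markers were above 0 and all 12 striatal markers below 0 in it, with list means of 0.62 and -0.31. Each trait had a near match: mephedrone replicate 2 also had all 11 cortical markers above 0 (list mean 0.28). Ethanol replicate 1 had only 1 of 12 striatal markers above 0 (list mean -0.14). Over all probe sets combination replicate 3 had an SD of 0.169, and ethanol replicate 1 had 0.127, against 0.068 to 0.102 in the other arrays. Some other marker lists of combination replicate 3 stood apart too, with means of 1.98 for choroid plexus, 0.48 for oligodendrocytes, 0.26 for astrocytes and -0.33 for cholinergic interneurons. Its interneuron mean of 0.19 was below that of ethanol replicate 1 (0.32), and its hypothalamic mean of -0.12 above that of saline replicate 2 (-0.16). Choroid plexus means were also high on saline replicate 2 (1.18), ethanol replicate 1 (0.92), mephedrone replicate 1 (0.69) and combination replicate 2 (0.66).

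The plainest pattern lay in part of the TARP genes. Cacng2, Cacng3 and Cacng4 were lower in the 6 arrays given mephedrone, with or without ethanol, than in the 6 arrays without it, by 0.20 to 0.23 in log2, while the TARP Cacng8 differed by 0.0018. The subunit genes Gria1 and Gria2 were higher with mephedrone alone than with saline, by 0.12 and 0.14, while the combination differed from saline by -0.0030 and 0.028 with all arrays, and by 0.047 and 0.063 without combination replicate 3. With 1 value per gene, none of the 10 genes passed the test after adjustment over all genes in any comparison. Only 1 probe set passed, of Cacng2, in the 6 against 6 comparison. Everything else below is a difference of known size and error that did not pass.

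**Figure D1:**
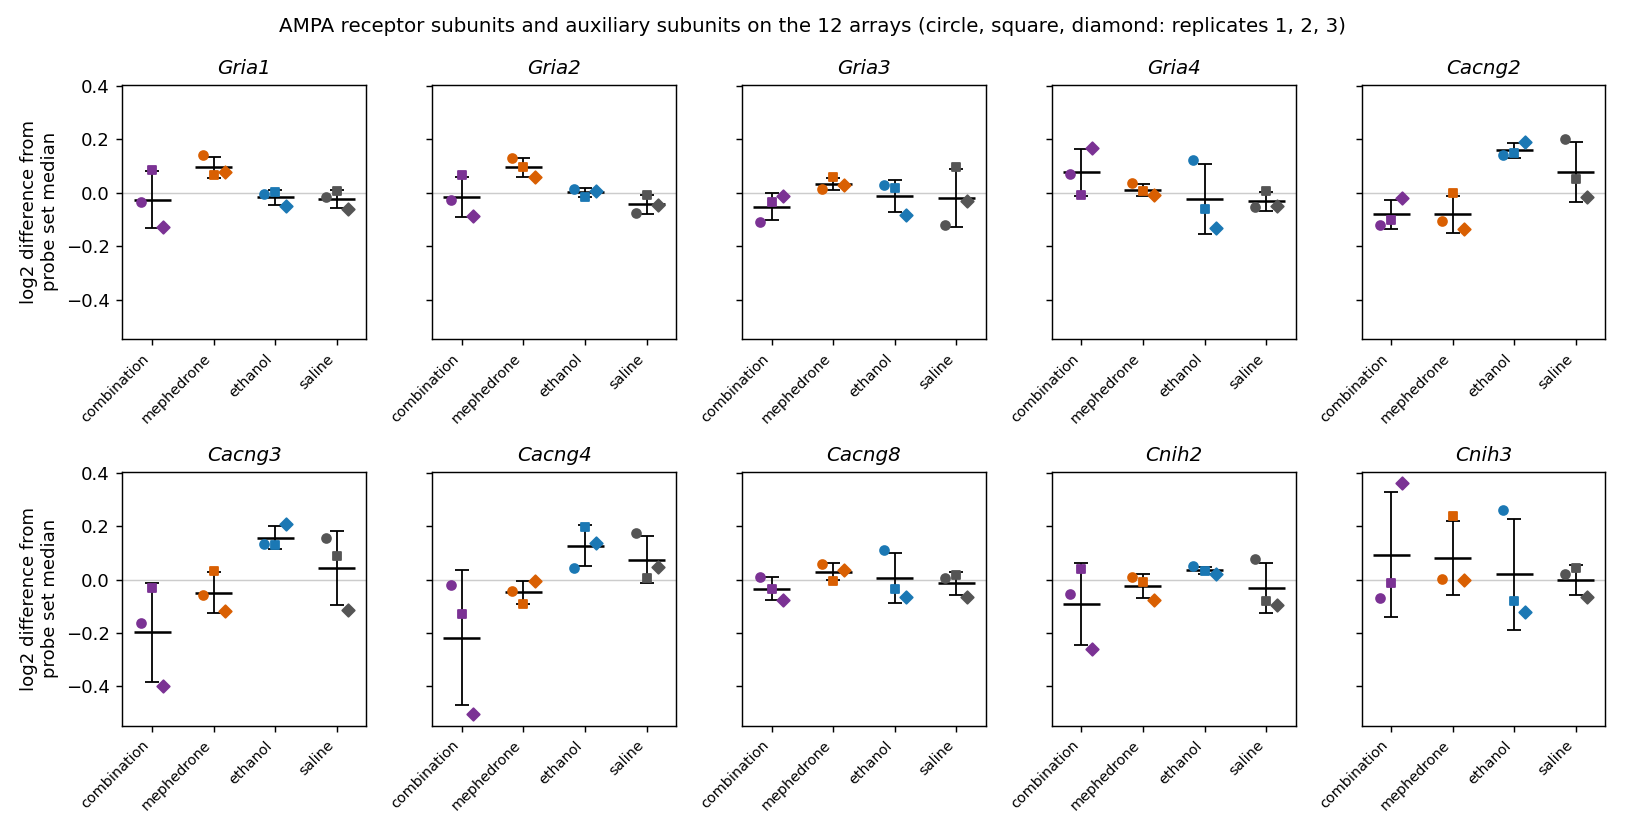
Values of the 10 genes on each array, as log2 differences from the probe set's median (vertical axis), by group, with replicates 1, 2 and 3 as circle, square and diamond and bars for the group mean and SD (n = 3). Cacng2, Cacng3 and Cacng4 lie lower in the combination and mephedrone groups than in the ethanol group, and combination replicate 3 is the lowest array for Cacng3 (-0.40) and Cacng4 (-0.50).

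The promoter window of Cacng2 is shown because this gene held the only probe set that passed the test. It comes from the RefSeq promoter table of build GRCm38.p6, of which the windows of 6 of the 10 genes were used. The line gives the 250 bases before the start listed there, in the direction of the gene, with the letters CAGCTG in capitals. The gene annotation places Cacng2 at bases 77991919 to 78120220 of chromosome 15. The window lies inside that span, so it is not upstream of the gene's outermost annotated end.
Cacng2 (chr15:78119281-78119530, minus strand): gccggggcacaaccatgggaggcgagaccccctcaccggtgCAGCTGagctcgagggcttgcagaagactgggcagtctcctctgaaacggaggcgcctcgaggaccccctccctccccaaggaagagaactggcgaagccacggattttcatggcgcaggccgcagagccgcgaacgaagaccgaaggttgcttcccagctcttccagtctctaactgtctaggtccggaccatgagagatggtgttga
The hexamer CAGCTG, which reads the same on both strands and can be bound by basic helix-loop-helix factors, was chosen after these letters had been read. It occurred once in this window, beginning 209 bases before the start listed for the window. It was in none of the windows of the other 5 genes, and in 13.0% of 32851 promoter windows of the same length. Other letters searched on both strands were not in this window. They were the cyclic AMP response element TGACGTCA (in 1.55% of all windows) and its core TGACG, which lies within it (17.8%). The others were the E-box CACGTG (6.02%), the GC box GGGCGG (32.7%), the Egr site GCGTGGGCG (0.536%) and the TATA box TATAAA (12.4%). A match is a description of the letters only.

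Cacng2 encodes stargazin, the first TARP to be described, which carries AMPA receptors to the membrane and anchors them at the synapse. It is the gene mutated in the stargazer mouse. Its value was -0.12, -0.10 and -0.020 on the combination arrays and -0.11, -0.0016 and -0.13 on the mephedrone arrays, against 0.14, 0.15 and 0.19 with ethanol and 0.20, 0.050 and -0.016 with saline. All 6 mephedrone-treated arrays were below 0, and 5 of the 6 others above it. The group means were -0.081 ± 0.054 (SD, n = 3) for the combination and -0.081 ± 0.070 for mephedrone, against 0.16 ± 0.027 for ethanol and 0.079 ± 0.11 for saline. The combination minus mephedrone difference was -0.00014 (95% interval -0.12 to 0.12), and -0.031 without combination replicate 3. The ethanol arrays lay above all arrays of both mephedrone-treated groups, an order whose share over all genes was not counted. They overlapped with saline, which overlapped with mephedrone through replicate 3.

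Cacng2 differed by -0.20 in the main effect of mephedrone, which sets the mean of the combination and mephedrone groups against the mean of ethanol and saline (SE 0.040, 95% interval -0.29 to -0.11, 0.871-fold). The adjusted p in limma, over all genes, was 0.0762. Against ethanol, the combination differed by -0.24 (SE 0.057, adjusted p = 0.234) and mephedrone alone by -0.24 (adjusted p = 0.475). Against saline each differed by -0.16 (SE 0.057, adjusted p in limma 0.305 for the combination and 0.583 for mephedrone). The comparisons with ethanol share its 3 arrays, and those with saline share theirs. The main effect for Cacng2 passed with array quality weights (-0.21, adjusted p in limma 0.0226) and without both combination replicate 3 and ethanol replicate 1 (-0.22, adjusted p in limma 0.0490).

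Both probe sets of Cacng2 were lower in the main effect of mephedrone. Between the combination and mephedrone the differences were -0.047 for 10430280 (95% interval -0.17 to 0.075) and 0.047 for 10430282 (-0.081 to 0.17). Both intervals include 0, and the mean of both probe sets does not show these differences. Probe set 10430282, which the platform annotation ties to 6 sequence records including a curated RefSeq mRNA, read -0.14, -0.10 and -0.0046 with the combination and -0.15, -0.041 and -0.19 with mephedrone, against 0.18, 0.17 and 0.22 with ethanol and 0.21, 0.065 and 0.0046 with saline. All 6 mephedrone-treated arrays lay below all 6 others, as in 0.478% of all probe sets. It fell by 0.25 in the main effect of mephedrone (SE 0.041, 95% interval -0.34 to -0.16, 0.843-fold, adjusted p in limma 0.0452 over all probe sets). In that comparison 0.236% of all probe sets were called. Probe set 10430280, tied to 2 records and no curated mRNA, read -0.11, -0.10 and -0.035 with the combination and -0.061, 0.038 and -0.078 with mephedrone, against 0.10, 0.12 and 0.16 with ethanol and 0.20, 0.035 and -0.037 with saline. Here saline and mephedrone arrays overlapped, and the main effect was -0.15 (SE 0.039, adjusted p in limma 0.128).

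The call of probe set 10430282 of Cacng2 sat close to the threshold. Leaving out any 1 array kept the difference between -0.27 and -0.22. The adjusted p in limma then ran from 0.0425 to 0.136, and the call remained without combination replicate 3 or saline replicate 3 and ended without any 1 of the other 10 arrays. It also ended with the replicate number as a block (adjusted p in limma 0.0951), with quantile normalisation (0.0640) and with marker levels as covariates (0.0710).

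**Figure D2:**
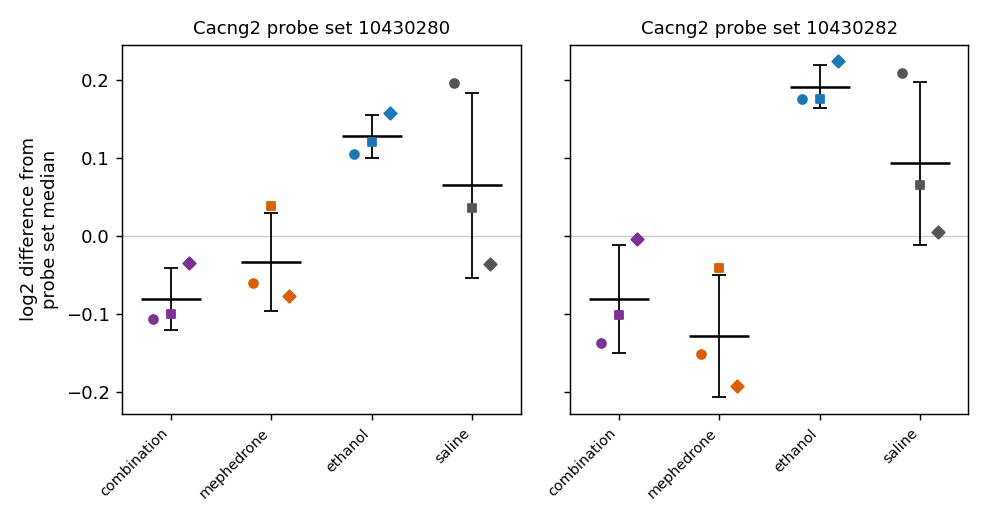
Each Cacng2 probe set by group, as the log2 difference from its median (vertical axis), with replicates 1, 2 and 3 as circle, square and diamond and bars for the group mean and SD (n = 3). On probe set 10430282 the highest mephedrone-treated array, at -0.0046, is below the lowest of the others, at 0.0046, while on 10430280 saline replicate 3 (-0.037) lies among the mephedrone-treated arrays.

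Cacng3, whose TARP is closely related to stargazin and is abundant in forebrain, read -0.16, -0.031 and -0.40 with the combination and -0.058, 0.031 and -0.12 with mephedrone, against 0.13, 0.13 and 0.21 with ethanol and 0.15, 0.088 and -0.11 with saline. Every ethanol array was above every mephedrone-treated array (share of all genes not counted), and saline overlapped with both mephedrone-treated groups. The main effect of mephedrone was -0.22 (SE 0.063, 95% interval -0.36 to -0.085, adjusted p in limma 0.152). The combination differed from ethanol by -0.35 (SE 0.089, 0.783-fold, adjusted p in limma 0.253) and from saline by -0.24 (adjusted p in limma 0.323). Without combination replicate 3, these were -0.17 for the main effect, -0.25 against ethanol and -0.14 against saline. Mephedrone alone differed from saline by -0.092 (95% interval -0.29 to 0.10).

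Cacng4, a TARP gene known from rodents to be expressed strongly in the developing brain and in striatum, read -0.019, -0.13 and -0.50 with the combination and -0.043, -0.092 and -0.0062 with mephedrone, against 0.044, 0.20 and 0.14 with ethanol and 0.17, 0.0062 and 0.046 with saline. All 6 mephedrone-treated arrays were below 0 and all 6 others above it. Such lack of overlap, with lower values, was seen in 0.361% of all genes, and in 1 of the 10 genes here. The main effect of mephedrone was -0.23 (SE 0.071, 95% interval -0.39 to -0.077, 0.851-fold, adjusted p in limma 0.180). The combination differed from saline by -0.29 (SE 0.10, adjusted p in limma 0.290) and from ethanol by -0.34 (adjusted p in limma 0.321). Much of these sizes came from the array at -0.50: without combination replicate 3 the differences were -0.15 from saline, -0.20 from ethanol and -0.16 in the main effect.

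Cacng8, whose TARP is best known from the hippocampus, read 0.0075, -0.035 and -0.078 with the combination and 0.056, -0.0059 and 0.036 with mephedrone, against 0.11, -0.035 and -0.064 with ethanol and 0.0059, 0.016 and -0.064 with saline. The groups overlapped throughout. The main effect of mephedrone was 0.0018 (SE 0.034), and its 95% interval of -0.073 to 0.076 does not reach the values of Cacng2, Cacng3 and Cacng4. Whether Cacng8 differs from them was not tested. Cacng5 and Cacng7 are further TARP genes, counted below among the other auxiliary proteins. Cacng5 had group means of 0.078 with the combination and 0.024 with mephedrone, against 0.043 with ethanol and -0.14 with saline. Those of Cacng7 were -0.038 and -0.048, against 0.068 and -0.0053.

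Of the 10 genes, 3 were lower in the main effect of mephedrone at an unadjusted p under 0.05, and these were Cacng2, Cacng3 and Cacng4. At that level 4.28% of all genes were lower and 8.36% higher, and none of the 10 genes was higher. Without combination replicate 3, Gria1 and Gria2 were higher at that level, by 0.079 and 0.078. Some other alternatives had Gria1, Gria2 or Gria4 higher at that level. After adjustment 0 of the 10 passed, where 0.115% of all genes did. The median over the 10 genes was 0.0039, beside 0.0038 over all genes, with 6 genes above and 4 below 0. The same 3 genes were lower at an unadjusted p under 0.05 in limma under each of the 19 alternatives run, among them the fits without combination replicate 3 and without both arrays with wide spread. In the combination against ethanol these 3 genes were also lower at that level, where 4.41% of all genes were, and in each the 3 combination arrays lay below the 3 ethanol arrays, as in 6.78% of all genes. In the combination against saline the same genes were lower at that level, beside 3.26% of all genes. Without combination replicate 3 Cacng3 no longer was (unadjusted p in limma 0.0910), nor was it without saline replicate 2. Cacng2 no longer was without combination replicate 1, and without saline replicate 1 none of the 3 was. With all arrays, the combination lay below saline without overlap for Cacng2 and Cacng4, as for 5.77% of all genes. After adjustment 0.0251% of all genes passed against ethanol and 0.0100% against saline, and none of the 10.

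**Figure D3:**
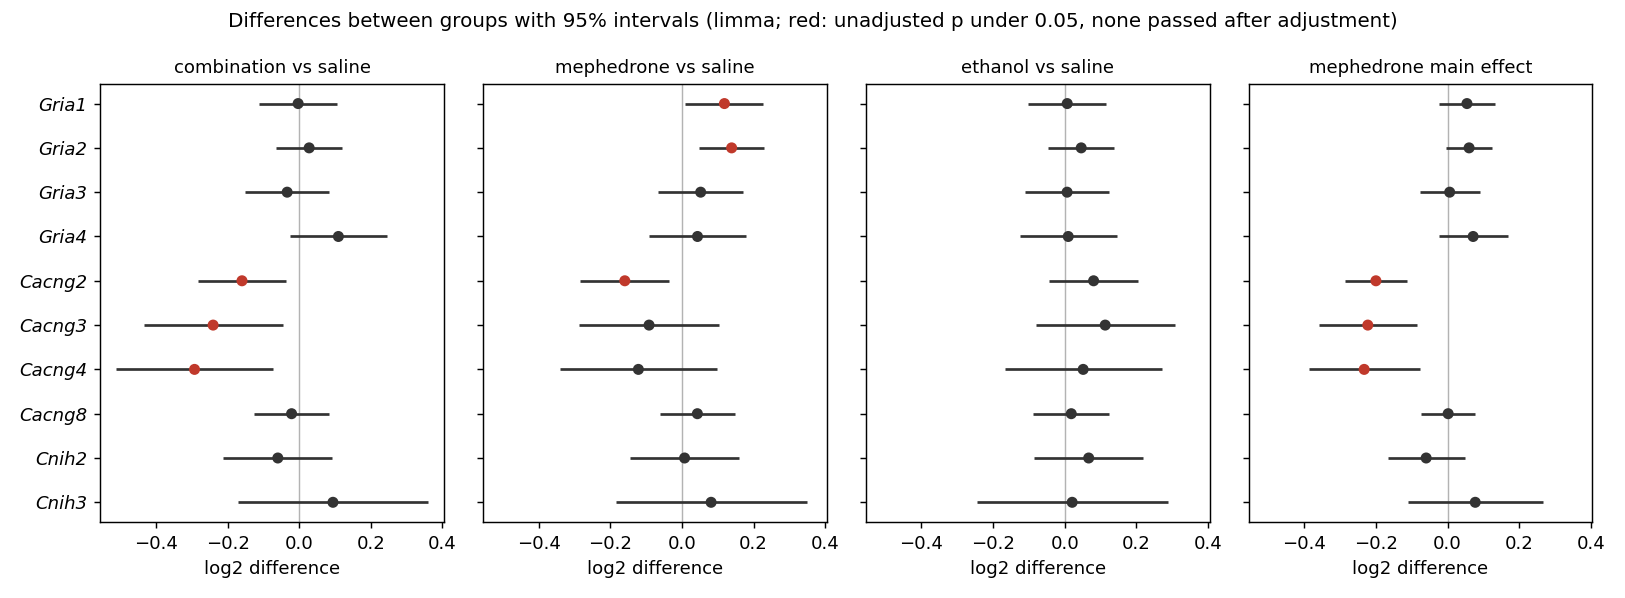
Log2 differences (horizontal axis) of the 10 genes for the combination, mephedrone and ethanol against saline and for the main effect of mephedrone, with 95% intervals from limma and red points for an unadjusted p under 0.05. The intervals of Cacng2, Cacng3 and Cacng4 lie below 0 in the first and last panels, those of Gria1 and Gria2 above 0 in the panel for mephedrone against saline, and every interval includes 0 for ethanol against saline.

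The pore-forming subunits showed another order of groups. Gria1 encodes GluA1, a subunit whose delivery to synapses is a classical step of long-term potentiation. It read -0.036, 0.084 and -0.13 with the combination and 0.14, 0.067 and 0.078 with mephedrone, against -0.0032, 0.0032 and -0.049 with ethanol and -0.015, 0.0056 and -0.060 with saline. The 3 mephedrone arrays were above all ethanol and saline arrays, and the combination arrays were spread over the range of the other groups. Mephedrone differed from saline by 0.12 (SE 0.050, 95% interval 0.0097 to 0.23, 1.09-fold, adjusted p in limma 0.655), and the combination from mephedrone by -0.12 (SE 0.050, adjusted p in limma 0.992).

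Gria2 encodes GluA2, which after RNA editing makes the receptor nearly impermeable to calcium. It read -0.025, 0.065 and -0.087 with the combination and 0.13, 0.10 and 0.058 with mephedrone, against 0.015, -0.016 and 0.0078 with ethanol and -0.077, -0.0078 and -0.046 with saline. Again the mephedrone arrays were above all ethanol and saline arrays. Mephedrone differed from saline by 0.14 (SE 0.042, 95% interval 0.047 to 0.23, 1.10-fold, adjusted p in limma 0.493). The combination differed from mephedrone by -0.11 (SE 0.042, adjusted p in limma 0.992) and from saline by 0.028 (95% interval -0.064 to 0.12). The interaction, which is the ethanol difference in the presence of mephedrone minus that in its absence, was -0.16 for Gria2 (SE 0.059, unadjusted p in limma 0.0220, adjusted p 1.00) and -0.13 for Gria1 (SE 0.070, 95% interval -0.28 to 0.025).

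Higher values with mephedrone than with saline at an unadjusted p under 0.05 were found in 2 of the 10 genes, Gria1 and Gria2, and in 5.72% of all genes. Lower values were found in 1, Cacng2, and in 1.51% of all genes, and 0% passed after adjustment. The arrays of Gria1 and Gria2 did not overlap with saline and were higher, as in 9.99% of all genes, and those of Cacng4 were lower, as in 4.74%. The unadjusted p of Gria1 was no longer under 0.05 without mephedrone replicate 1 or 3 or saline replicate 1 or 3, and for both Gria genes with marker covariates. That of Cacng2 was no longer under 0.05 without mephedrone replicate 3 or saline replicate 1. Between mephedrone and ethanol, Gria1 and Gria2 were higher at that level (3.26% of all genes) and Cacng2 and Cacng3 lower (3.02%). Arrays did not overlap for Gria1 and Gria2, which were higher (5.56%), and for Cacng2, Cacng3, Cacng4 and Cnih2, which were lower (6.70%). Between the combination and mephedrone, Gria1 and Gria2 were lower at that level, beside 1.42% of all genes. Both calls ended without combination replicate 3, at -0.071 for Gria1 (unadjusted p in limma 0.153) and -0.075 for Gria2 (0.104). In the interaction Gria2 was the only such gene, beside 2.40% of all genes. Without combination replicate 3 that call ended too (-0.12, unadjusted p in limma 0.0565), and Gria1 had -0.078. Gria1 and Gria2 varied together from array to array. Over the 12 arrays their Pearson correlation was 0.900 (permutation p = 9.0e-05, adjusted p = 0.00405 over 45 pairs of the 10 genes) and Spearman's rho was 0.846 (permutation p = 9.3e-04, adjusted p = 0.0209). Without combination replicate 3 and mephedrone replicate 1, Pearson's r was 0.804, and for deviations from the group means it was 0.839. Both genes were lowest on combination replicate 3 and highest on mephedrone replicate 1. These probe sets read related genes, and whether probes of 1 bind RNA of the other was not tested.

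Gria3 and Gria4, the other subunit genes, had no difference with an unadjusted p under 0.05. Gria3 read -0.11, -0.035 and -0.013 with the combination and 0.013, 0.057 and 0.030 with mephedrone, against 0.027, 0.019 and -0.083 with ethanol and -0.12, 0.10 and -0.033 with saline. The combination arrays lay below the mephedrone arrays, as in 4.50% of all genes, with a difference of -0.086 (95% interval -0.20 to 0.032). Gria4, which in cortex marks many interneurons, read 0.069, -0.0066 and 0.17 with the combination and 0.036, 0.0066 and -0.0097 with mephedrone, against 0.12, -0.059 and -0.13 with ethanol and -0.054, 0.0085 and -0.051 with saline. Its highest arrays were combination replicate 3 and ethanol replicate 1, the arrays with the widest spread over all probe sets. The combination differed from saline by 0.11 (95% interval -0.026 to 0.25), and by 0.063 without combination replicate 3. In some alternatives Gria4 was higher in the main effect of mephedrone at an unadjusted p under 0.05 in limma. These were marker covariates (0.083), array weights (0.087), the fit without ethanol replicate 1 and that without both wide arrays (0.085). There 9.71% to 11.6% of all genes were higher. Some alternatives also gave Gria4 such a p for the combination against ethanol or saline.

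The cornichon genes also had no difference with an unadjusted p under 0.05 in the main fit. Without combination replicate 2, Cnih2 was lower at that level in the combination against ethanol, as were 4.37% of all genes. Cnih2, a partner that slows receptor deactivation in hippocampus and cortex, read -0.056, 0.040 and -0.26 with the combination and 0.011, -0.011 and -0.077 with mephedrone, against 0.049, 0.033 and 0.020 with ethanol and 0.076, -0.080 and -0.094 with saline. The combination differed from ethanol by -0.13 (95% interval -0.28 to 0.025), and by -0.042 without combination replicate 3. Cnih3, its close relative, read -0.069, -0.013 and 0.36 with the combination and 0.0023, 0.24 and -0.0023 with mephedrone, against 0.26, -0.079 and -0.12 with ethanol and 0.020, 0.042 and -0.067 with saline. In 3 groups a lone array was high for Cnih3 and the others near or below 0, and the SD within groups, pooled, was 0.173, the largest of the 10 genes. All comparisons of Cnih3 had 95% intervals that include 0.

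None of the 10 genes passed for ethanol against saline. All 10 were above saline in the mean, where 41.1% of all genes were below it, by 0.0066 (Gria3) to 0.11 (Cacng3), with a median of 0.033 beside 0.011 over all genes. That count was not stable: 6 genes were above saline without ethanol replicate 1, 6 without saline replicate 3, and 5 with quantile normalisation or array weights. Without ethanol replicate 1 the differences were -0.013 for Gria3, -0.063 for Gria4, -0.035 for Cacng8 and -0.099 for Cnih3. No gene was past an unadjusted p of 0.05, where 4.98% of all genes were, and 0% passed after adjustment. For the mean of the ethanol and combination groups against that of the mephedrone and saline groups, the differences ran from -0.060 (Cacng4) to 0.040 (Cacng2), and 0% of all genes passed. None of the 10 had an unadjusted p under 0.05 there, where 4.57% of all genes did. In the moderated F test for any difference among the 4 groups, Gria2, Cacng2, Cacng3 and Cacng4 had an unadjusted p under 0.05, beside 8.35% of all genes. None passed after adjustment (smallest adjusted p in limma 0.327, for Cacng2), where 0.00502% of all genes did.

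Marker lists of cell types also differed in the main effect of mephedrone. Above 0 were 9 of 9 choroid plexus genes (list mean 0.21) and 9 of 11 cortical genes (0.16). Below 0 were 5 of 5 cholinergic interneuron genes (-0.063) and 9 of 12 striatal projection neuron genes (-0.020). Combination replicate 3 had the most extreme mean of each of these lists, at 1.98, 0.62, -0.33 and -0.31, and they were not compared without it. With mephedrone alone against saline, 8 of 9 choroid plexus genes were below 0 (list mean -0.21). There 9 of 11 cortical genes (0.079), 3 of 5 cholinergic genes (0.021) and 6 of 12 striatal genes (0.047) were above 0. None of these genes passed after adjustment in limma, and the part of choroid plexus and cholinergic content in the values of the TARP genes was not tested. Several of the genes varied with the markers over the arrays. Cortical excitatory neuron markers (11 of 12 listed genes measured) had list means from -0.085 to 0.62 with the combination and -0.060 to 0.28 with mephedrone, against -0.32 to 0.13 with ethanol and -0.25 to 0.26 with saline. Cacng4 was lower where these markers were higher, with a Pearson correlation of -0.837 over 12 arrays (permutation p = 0.00161, adjusted p = 0.0179 over 30 relations, rho -0.615, permutation p = 0.0369, adjusted p = 0.277). Without combination replicate 3 and ethanol replicate 2 its r was -0.464, so the relation rests in part on those arrays. For deviations from the group means it was -0.906. Cnih3 was higher where cortical markers were higher (r = 0.792, permutation p = 0.00239, adjusted p = 0.0179, rho 0.657, permutation p = 0.0244, adjusted p = 0.244), with 0.593 without the same arrays.

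Markers of striatal projection neurons (12 of 14 listed genes measured) had list means from -0.31 to 0.010 with the combination and -0.0090 to 0.043 with mephedrone, against -0.14 to 0.066 with ethanol and -0.071 to 0.021 with saline. All 12 of them were below 0 in the combination against mephedrone (list mean -0.12), as were 48.1% of all genes. In the interaction all 12 were below 0 too (-0.13), as were 55.5% of all genes. Gria4 was higher where these markers were lower (r = -0.790, permutation p = 0.00140, adjusted p = 0.0179, rho -0.713, permutation p = 0.0115, adjusted p = 0.172), but its r was -0.324 without combination replicate 3 and ethanol replicate 1. Cnih3 also was (r = -0.826, permutation p = 0.00201, adjusted p = 0.0179, rho -0.727, permutation p = 0.00974, adjusted p = 0.172), with -0.397 without those arrays. No relation of Cacng2, Cacng3, Gria1 or Gria2 with the cortical, striatal or oligodendrocyte precursor lists passed adjustment. With the cortical and striatal list means as covariates, the main effect of mephedrone was -0.21 for Cacng2 (SE 0.048, adjusted p in limma 0.107), -0.24 for Cacng3 (SE 0.058, adjusted p in limma 0.115) and -0.19 for Cacng4 (SE 0.036, adjusted p in limma 0.0942).

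**Figure D4:**
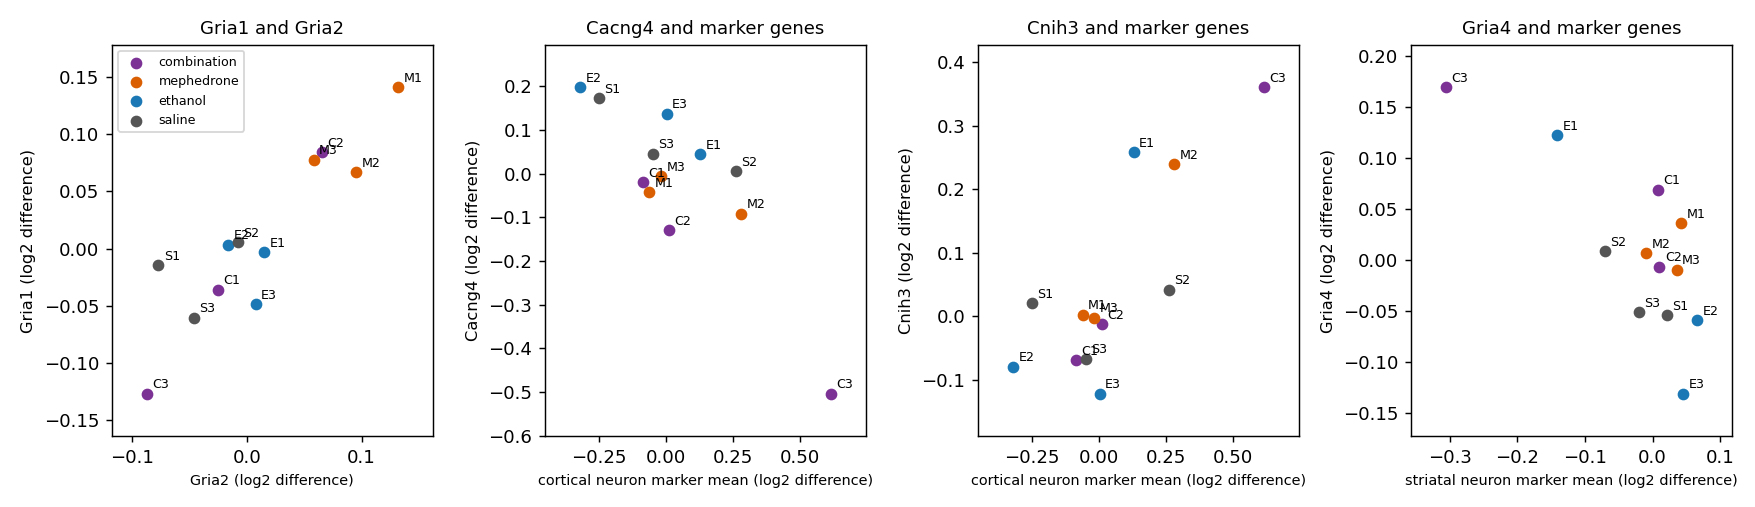
Relations over the 12 arrays, with letters C, M, E and S for combination, mephedrone, ethanol and saline and the replicate number: Gria1 against Gria2, Cacng4 and Cnih3 against the mean of the cortical excitatory neuron markers, and Gria4 against the mean of the striatal projection neuron markers, all as log2 differences. Gria1 and Gria2 lie along a line over the 12 arrays. Within the ethanol group, Gria2 is lowest (-0.016) on the array where Gria1 is highest (0.0032). In the other panels combination replicate 3 stands at the far end of both axes.

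Among the 10 genes, 4 of 45 pairs had an adjusted permutation p under 0.05 for Pearson's r. The share of all gene pairs with such a correlation was not counted, so the count is no result about these genes. Outside the 10 genes, the highest r was 0.908 with Gria2 (Cpsf3) and 0.899 with Gria1 (Spata45), beside 0.900 for Gria1 with Gria2. Beside Gria1 with Gria2, these were Cacng3 with Cnih2 (r = 0.838, permutation p = 0.00155, adjusted p = 0.0289, rho 0.727, permutation p = 0.00944, adjusted p = 0.124), Cacng3 with Cacng4 (r = 0.830, permutation p = 0.00193, adjusted p = 0.0289, rho 0.671, permutation p = 0.0204, adjusted p = 0.131) and Gria4 with Cnih3 (r = 0.774, permutation p = 0.00324, adjusted p = 0.0364, rho 0.685, permutation p = 0.0165, adjusted p = 0.124). Without combination replicate 3 and ethanol replicate 3 these r were 0.654, 0.548 and 0.543. Cacng2 with Cacng3 had r = 0.722 (permutation p = 0.00719, adjusted p = 0.0539) and rho 0.874 (permutation p = 3.9e-04, adjusted p = 0.0175). For deviations from the group means that pair had r = 0.320, Cacng2 with Cacng4 had -0.189 and Cacng3 with Cacng4 had 0.608. Without ethanol replicate 3 and saline replicate 1, r for Cacng2 with Cacng3 was 0.593.

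Over the 12 arrays the genes most like Cacng2, of 19928 others, were Etv5, an ETS-family transcription factor (r = 0.958), B4galnt1, an enzyme of ganglioside synthesis (0.942), and Trim9, a neuronal ubiquitin ligase (0.930). Those most like Gria1 were Spata45 (0.899), Atp8a1, a phospholipid flippase (0.891), and Rbm25, an RNA-binding splicing factor (0.888). Those most like Gria2 were Cpsf3 and Cstf3, both of the machinery that cuts the 3′ ends of pre-mRNA (0.908 and 0.899), and Fam184b (0.897). These are the highest of many correlations and a description of these arrays only.

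Other AMPA receptor partners gave no call. Of 16 measured genes for other auxiliary proteins, 0 passed in any comparison. In the main effect of mephedrone 11 were above and 5 below 0, with a median of 0.040. The smallest p-values were those of Prrt1, a receptor-bound membrane protein, at -0.12 (SE 0.051, adjusted p in limma 0.342), and Porcn, which binds the receptor in the endoplasmic reticulum, at 0.071 (SE 0.031, adjusted p in limma 0.365). Of 24 measured scaffold and trafficking genes 0 passed, with 14 above and 10 below 0 and a median of 0.0078. Arc, an immediate early gene whose protein removes AMPA receptors from synapses, had -0.53 (SE 0.120, 0.691-fold, adjusted p in limma 0.101), and Lrrtm2, a synaptic adhesion protein, had -0.084 (SE 0.031, adjusted p in limma 0.276).

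Arc read -0.38, -0.27 and -0.11 with the combination and -0.27, -0.17 and 0.11 with mephedrone, against 0.37, 0.53 and 0.45 with ethanol and 0.71, -0.12 and 0.18 with saline. The ethanol arrays were above all mephedrone-treated arrays, as they were for Cacng2, Cacng3 and Cacng4. The share of all genes with this order was not counted, so how common it is cannot be told. Grip1, a scaffold that binds the tails of GluA2 and GluA3, read -0.029, -0.10 and -0.16 with the combination, against 0.19, 0.059 and 0.12 with ethanol. The difference was -0.22 (SE 0.055, adjusted p in limma 0.252), and those groups did not overlap, as in 6.78% of all genes. With mephedrone alone Grip1 read -0.036, 0.049 and 0.029, and with saline -0.083, 0.078 and -0.085. Both of these groups overlapped with the combination.

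Of 8 measured genes of the kainate and delta receptor families and their Neto partners, 0 passed. In the main effect of mephedrone the median was 0.049, with 5 above and 3 below 0. Grik5, a kainate receptor subunit, had 0.11 (SE 0.035, adjusted p in limma 0.209) and Neto1, an auxiliary kainate receptor subunit, 0.075 (SE 0.028, adjusted p in limma 0.280). In the combination against ethanol Grik5 had 0.13 (adjusted p in limma 0.428) and Grid1, a delta receptor, -0.097 (adjusted p in limma 0.497). Whether Cacng2, Cacng3 and Cacng4 differ from these families was not tested.

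**Figure D5:**
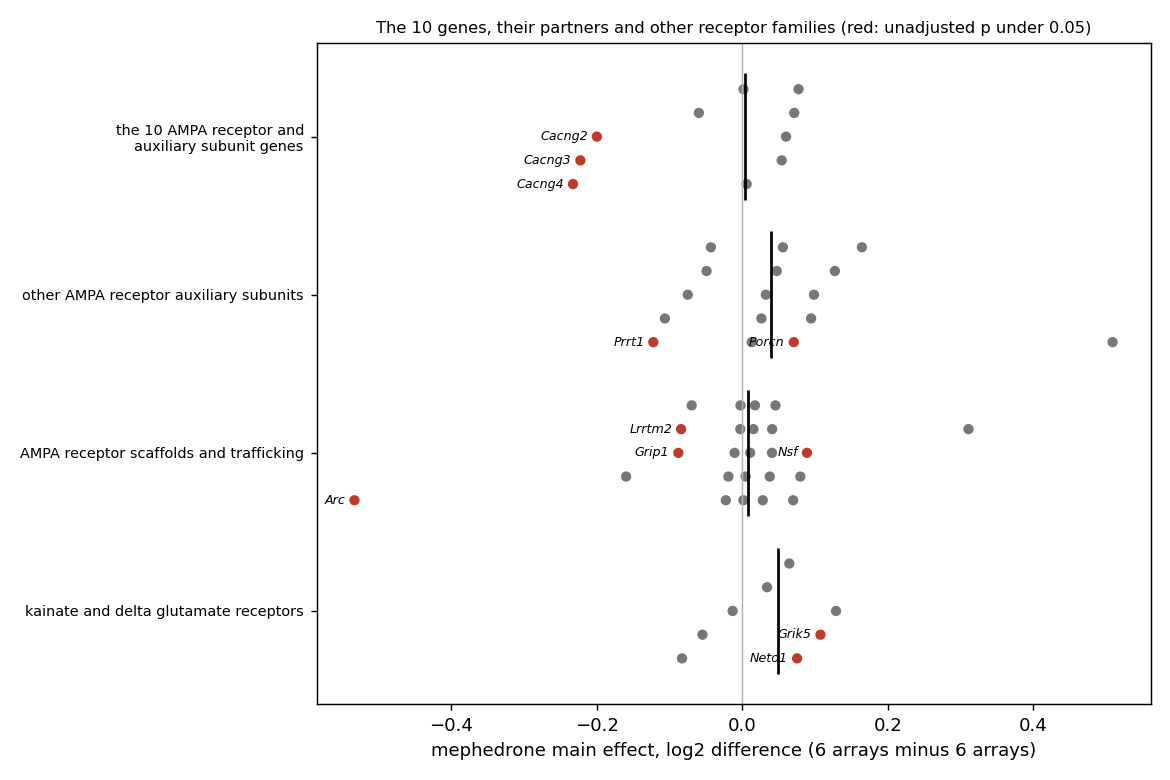
Main effect of mephedrone (horizontal axis, log2 difference of 6 arrays minus 6 arrays) for the 10 genes and for lists of other auxiliary, scaffold and glutamate receptor genes, with a point per gene, a black bar at each list's median and red for an unadjusted p under 0.05. Cacng2, Cacng3 and Cacng4 stand between -0.23 and -0.20 while the medians lie between 0.0039 and 0.049, and Arc stands lowest at -0.53.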

How the data were processed

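RNA of 12 samples was measured on arrays. Per the submitters' processing notes the authors used RMA, which corrects background, normalises by quantiles and summarises probes, with genome build mm8, and GeneSpring GX 7.3.1 is named in the design text of the series. The deposited log2 values are centred on each probe set's median (within 7.02e-07 of 0), a step no source describes. There were 0 missing values, no array was left out, and the number of arrays limits the precision.

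Symbols came from the platform annotation: 21789 probe sets had 1, 1621 several and 5443 none. Values were averaged per gene, and limma 3.58.1 (R 4.3.3) estimated the group means from the 12 arrays together (8 residual and 3.43 prior degrees of freedom). P-values are two-sided, with Benjamini-Hochberg adjustment over 19938 genes or 28853 probe sets and a threshold of 0.05. The fit was tried on simulated data with independent noise and added differences larger than those of the 10 genes. That trial therefore does not show how well differences of the sizes reported here are recovered. Correlations have permutation p-values from 1e+05 resamples. Names followed a rule: the 10 genes, per partner list the 2 smallest p-values in the mephedrone main effect and in the combination against ethanol, and the 3 genes most like Gria1, Gria2 and Cacng2. Cacng5 and Cacng7, also TARP genes, were named outside this rule. Genes and lists were chosen with earlier results of these data known. Alternatives left out arrays, added a replicate block, weights or marker covariates, or changed the normalisation, the value per gene or the variance model. Protein sequences were not used here, and 1 promoter window is not reported here.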

Additional observations from a re-analysis of the deposited data

How the results depend on the processing

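In the main effect of mephedrone 0 of the 10 genes passed, and 1 of them, Cacng2, passed with array quality weights (1 gene), without both combination replicate 3 and ethanol replicate 1 (1 gene) and with each probe set fitted on its own (1 gene, an alternative chosen after seeing the data). With the replicate block 0 passed, as in each fit without 1 array (0 to 0), and the block changed no call of the 10 genes with 1 value per gene. Of 18 pairs of arrays with the same number, 7 correlated above 0.1 (lowest -0.28, highest 0.43). Pairs with different numbers were not compared, so whether the numbers pair the samples cannot be told from this. In the other comparisons, and in the F test, 0 of the 10 passed under every alternative. The count over all genes in the main effect of mephedrone was 23, and 2 (without saline replicate 1) to 86 (without ethanol replicate 1) without 1 array, 6 with the replicate block, 9 with quantile normalisation, 14 with marker covariates, 356 with array weights 213 without both arrays and 68 probe sets with each fitted on its own. Of 2106 repeated differences of the 10 genes and of the Cacng2 probe sets, 132 had the opposite sign, none of them a called value. The values are centred, so signal over background is unknown and limits small changes of dim probe sets.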

Other observations

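Some partner genes, chosen after their values were seen, had values on combination replicate 3 far from those on the other combination arrays. Nrn1, a secreted activity-regulated protein, read 1.49 on combination replicate 3 and 0.87 on saline replicate 2, against -1.15 on ethanol replicate 2 and -1.12 on saline replicate 1. Its main effect of mephedrone was 0.51 (SE 0.403, adjusted p in limma 0.680). Nptx1, a pentraxin that clusters AMPA receptors, read 0.99 on combination replicate 3 and -0.84 on ethanol replicate 2, with a main effect of 0.31 (SE 0.236, adjusted p in limma 0.663). Lrrtm1, a synaptic adhesion protein, read -0.45 on combination replicate 3, with a main effect of -0.16 (SE 0.077, adjusted p in limma 0.425). These arrays had cortical marker means of 0.62 (combination replicate 3), 0.26 (saline replicate 2), -0.32 (ethanol replicate 2) and -0.25 (saline replicate 1), and the part of tissue content in these values was not tested.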
